A study of Mus musculus with 12 samples.

Results

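Expression of 9 neuroendocrine genes was followed in every library of a study of prostate cancer prevention in mice. The genes were Insm1, Foxa2, Chga, Chgb, Scg3, Syp, Snap25, Ncam1 and Eno2, chosen by name from 24421 genes with a value. The study holds 12 RNA sequencing libraries in 7 groups, each with values as FPKM (fragments per kilobase of transcript, normalized to the library's size). The TRAMP mice (strain C57BL/6-Tg(TRAMP)8247Ng/J) carry the SV40 tumor antigens under the probasin promoter, which drives expression in prostate epithelium, and the wild type mice were C57BL/6. The groups were 1 library from a prostate tumor of a TRAMP mouse aged 24 weeks on control diet (lobe of origin unknown); 2 libraries from TRAMP prostate at 24 weeks on a diet holding PEITC (phenethyl isothiocyanate, found in watercress and other crucifers) at 0.05% w/w; 2 from TRAMP prostate at 24 weeks on control diet; 2 from wild type prostate at 24 weeks on control diet; 2 each from TRAMP prostate at 16 weeks on PEITC diet and on control diet; and 1 from wild type prostate at 16 weeks on control diet. The control diet was AIN93M, and apart from the tumor every library came from ventral with dorsolateral prostate. Libraries are named by the replicate number in their titles (0, 1 or 2); the titles do not say whether a library is 1 animal or a pool.

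Neuroendocrine cells are scattered in the normal prostate epithelium, where they store peptides and amines in dense core granules and release them by regulated exocytosis. Their identity is set by transcription factors such as INSM1, while REST represses neuronal genes in other epithelial cells. Autonomic nerves, which supply the prostate, use many of the same vesicle genes. TRAMP mice are known to develop adenocarcinoma-like lesions and, in some animals, neuroendocrine carcinoma.

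Tissue identity and 1 library that stood apart bear on what follows. All 12 genes of a prostate luminal list (among them Hoxb13 and Krt8) were at 1 FPKM or more in every library, the tumor included. The 16-week wild type library held 7813 FPKM summed over 6 seminal vesicle secretory genes, against 0 to 8.02 FPKM in the other 11 libraries. It also had the highest summed level of 7 skeletal muscle genes (82.5 FPKM, against 12.9 to 34.9), and as the only library of its group it has no replicate. Read totals are not given; relative depth, from the steps between low values, ran between 0.635 of the deepest library (16-week wild type) and 1, and 17113 to 18505 genes were above 0. Replicates of a group correlated at 0.987 to 0.991 across the 13375 genes tested.

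The members' levels were carried by 2 libraries. Replicate 1 of TRAMP mice on PEITC diet at 24 weeks held the highest value of 7 of the 9 genes, and the 16-week wild type library held the highest value of the other 2, Snap25 and Eno2. Because these are bulk tissue values, more cells of a type and more RNA per cell cannot be told apart.

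Of the transcription factors, Insm1 (chromosome 2, 146221921-146225020, plus strand, GRCm38), a zinc finger repressor needed for neuroendocrine differentiation, was at 10.8 FPKM in replicate 1 and listed at 0 in replicate 0 of TRAMP PEITC at 24 weeks, at 0.0207 and 0.0327 FPKM in TRAMP control at 24 weeks, and at 0.0296 FPKM in the tumor. It was at 0.0304 and 0.0746 FPKM in wild type at 24 weeks, 0.0621 and 0.0242 FPKM in TRAMP PEITC at 16 weeks, 0.0447 and 0.0463 FPKM in TRAMP control at 16 weeks, and 0.0489 FPKM in wild type at 16 weeks. A single library therefore stood 145-fold above the next highest. The steps between low values put its Insm1 signal at about 968 fragments, against 0 to 5 fragments in each other library. Foxa2 (chromosome 2, 148042877-148046969, minus strand), a forkhead factor of endoderm that marks neuroendocrine prostate tumors in mice, was at 0 to 0.0428 FPKM. That top value, again in replicate 1 of TRAMP PEITC at 24 weeks, rests on about 3 fragments, so no difference in Foxa2 was detectable at this depth.

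The granins are the acidic proteins of the dense core granule. Chga (chromosome 12, 102554969-102565028, plus strand), which encodes chromogranin A, was at 0.141 and 12.4 FPKM in TRAMP PEITC at 24 weeks (replicates 0 and 1), 0.133 and 0.140 FPKM in TRAMP control at 24 weeks, and 0.143 FPKM in the tumor. It was at 0.634 and 0.958 FPKM in wild type at 24 weeks, 0.324 and 0.272 FPKM in TRAMP PEITC at 16 weeks, 0.0897 and 0.260 FPKM in TRAMP control at 16 weeks, and 0.811 FPKM in wild type at 16 weeks. Apart from the 1 high library, every TRAMP library was thus below all 3 wild type libraries. How many of all genes were ordered in this way is not given here, so this is a description only. Chgb (chromosome 2, 132781278-132795079, plus strand), which encodes chromogranin B, was at 0.0365 and 2.88 FPKM in TRAMP PEITC at 24 weeks, 0.0687 and 0.0241 FPKM in TRAMP control at 24 weeks, 0.0491 FPKM in the tumor and 0.118 and 0.0330 FPKM in wild type at 24 weeks. At 16 weeks it was at 0.0343 and 0.0268 FPKM in TRAMP PEITC, 0.0247 and 0.0128 FPKM in TRAMP control and 0.396 FPKM in wild type. Scg3 (chromosome 9, 75643189-75684056, minus strand), whose product secretogranin III tethers chromogranin A to the granule membrane, was listed at 0 and at 3.06 FPKM in TRAMP PEITC at 24 weeks. It was at 0.892 FPKM in wild type at 16 weeks and at 0.0213 to 0.0830 FPKM in the remaining 9 libraries.

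The 3 granin genes were highest in the same library, and stretches before their RefSeq starts are shown because each holds the core of the cAMP response element, the motif bound by CREB-family factors. Capitals mark every match to TGACG on either strand in the stretch printed; the full palindrome TGACGTCA, which holds overlapping matches on both strands, was found only before Chgb. For Chga and Scg3 the 250 bases before the start are given (GRCm38.p6; chr12:102554691-102554940, plus strand, and chr9:75684057-75684306, minus strand). For Chgb, whose start lies inside a longer GENCODE first exon, 30 bases are given (chr2:132781559-132781588, plus strand).
Chga: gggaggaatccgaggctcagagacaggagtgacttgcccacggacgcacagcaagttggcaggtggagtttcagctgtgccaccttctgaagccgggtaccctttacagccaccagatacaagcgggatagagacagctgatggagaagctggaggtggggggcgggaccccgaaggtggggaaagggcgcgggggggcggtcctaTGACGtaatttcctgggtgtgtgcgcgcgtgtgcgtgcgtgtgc
Chgb: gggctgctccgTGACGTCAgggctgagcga
Scg3: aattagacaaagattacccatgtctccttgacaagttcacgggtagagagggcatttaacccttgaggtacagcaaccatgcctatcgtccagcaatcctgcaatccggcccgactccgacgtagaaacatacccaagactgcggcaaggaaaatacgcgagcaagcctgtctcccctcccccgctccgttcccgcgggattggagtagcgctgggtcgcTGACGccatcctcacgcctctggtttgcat
The core was found in 17.8% of 32851 RefSeq promoter windows of 250 bases and the palindrome in 1.55%. Of the 6 members with a promoter entry, 3 held the core (Chga, Chgb and Scg3), while Foxa2, Syp and Eno2 had an entry without it. Of these, Foxa2 and Syp were also highest in replicate 1 of TRAMP PEITC at 24 weeks. A match describes the letters and does not show that a factor binds there.

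Among the exocytosis genes, Syp (chromosome X, 7638471-7653256, plus strand), which encodes the vesicle membrane protein synaptophysin, was at 0.576 and 3.23 FPKM in TRAMP PEITC at 24 weeks, 0.617 and 0.611 FPKM in TRAMP control at 24 weeks, 0.505 FPKM in the tumor and 0.684 and 0.781 FPKM in wild type at 24 weeks. At 16 weeks it was at 0.491 and 0.649 FPKM in TRAMP PEITC, 0.490 and 0.268 FPKM in TRAMP control and 2.70 FPKM in wild type. Synaptophysin RNA was detected in every library, with 2 libraries well above the other 10. Snap25 (chromosome 2, 136713453-136782428, plus strand), a SNARE that drives vesicle fusion, was listed at 0 and at 3.01 FPKM in TRAMP PEITC at 24 weeks, and was at 0.154 and 0.0295 FPKM in TRAMP control at 24 weeks, 0.420 FPKM in the tumor and 0.452 and 0.383 FPKM in wild type at 24 weeks. At 16 weeks it was at 0.0419 and 0.0818 FPKM in TRAMP PEITC, at 0.0302 FPKM and listed at 0 in TRAMP control, and at 3.76 FPKM in wild type. Its order differed from that of the granins: the 16-week wild type library was first.

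The remaining members are a surface protein and an enzyme with wider expression. Ncam1 (chromosome 9, 49502136-49798925, minus strand), a neural cell adhesion molecule, varied least: 0.920 and 2.55 FPKM in TRAMP PEITC at 24 weeks, 0.255 and 0.675 FPKM in TRAMP control at 24 weeks, 0.793 FPKM in the tumor and 1.36 and 1.34 FPKM in wild type at 24 weeks. At 16 weeks it was at 1.39 and 1.55 FPKM in TRAMP PEITC, 0.673 and 1.76 FPKM in TRAMP control and 2.16 FPKM in wild type. Both TRAMP control libraries at 24 weeks were below both wild type libraries of that age, an order whose share of all genes is not given here. The TRAMP PEITC libraries at 16 weeks lay between the TRAMP control libraries of that age. Eno2 (chromosome 6, 124760053-124769673, minus strand), the neuronal enolase of glycolysis, was at 0.640 FPKM in the tumor, 0.858 FPKM in replicate 1 of TRAMP PEITC at 24 weeks, 1.81 FPKM in wild type at 16 weeks and 0.117 to 0.377 FPKM in the other 9 libraries. Only the other 2 libraries named were above the tumor for this gene.

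**Figure D1:**
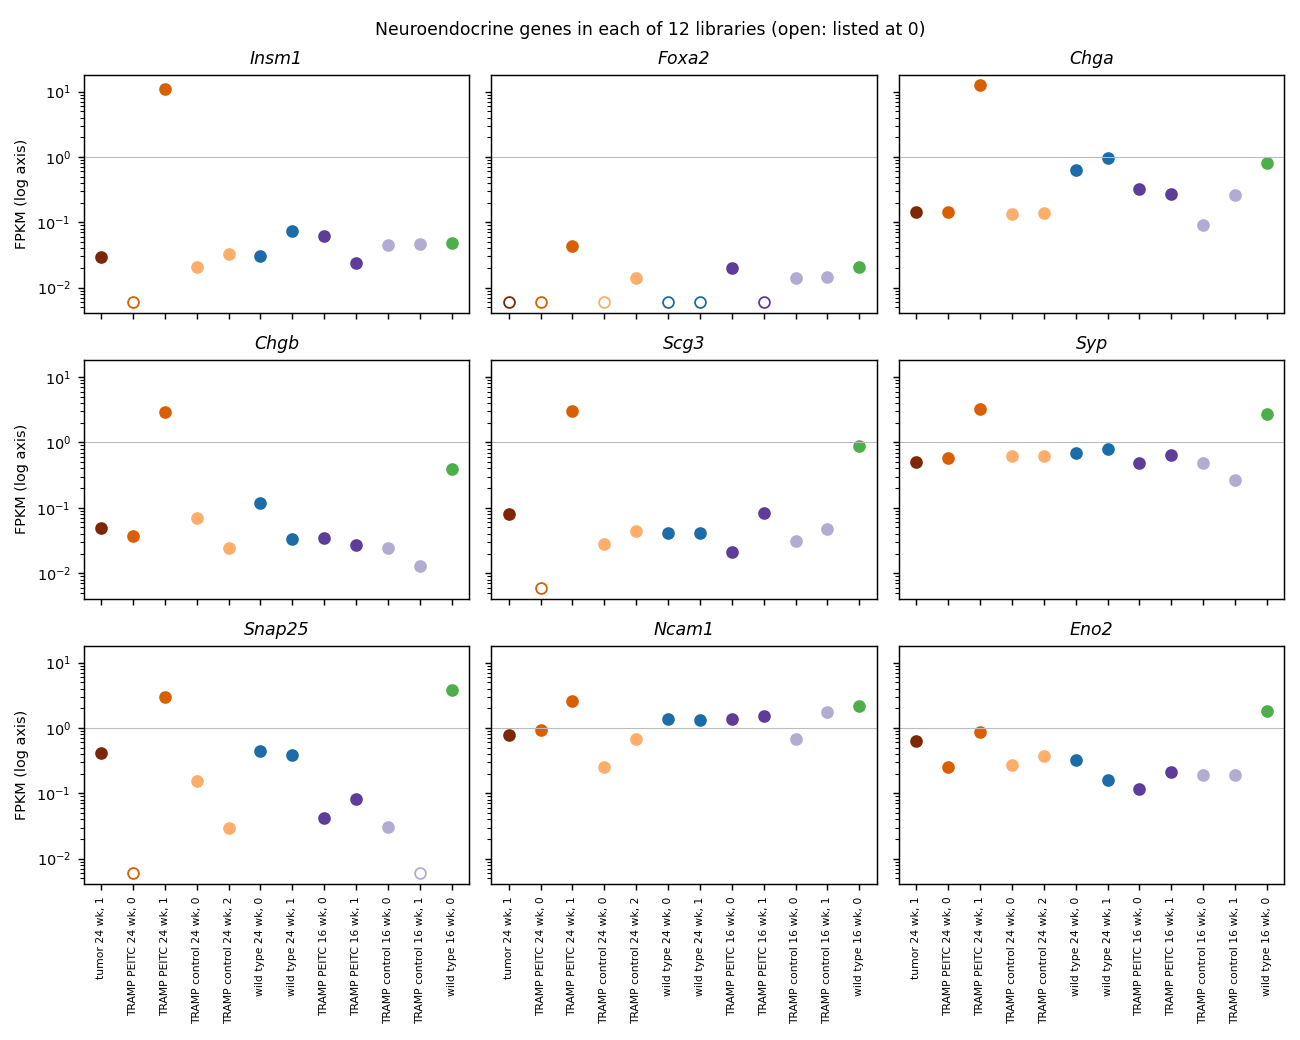
FPKM (log axis) of the 9 genes in each of the 12 libraries; 1 point is 1 library, colors are the groups, open points at the bottom are values listed at 0 and the grey line is 1 FPKM. Replicate 1 of TRAMP PEITC at 24 weeks reaches 10.8 FPKM for Insm1 and 12.4 FPKM for Chga, while the 16-week wild type library is high for Snap25 (3.76 FPKM), Syp (2.70 FPKM) and Eno2 (1.81 FPKM) and not for Insm1 (0.0489 FPKM).

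The 2 high libraries differed in which neural genes they held. FPKM is scaled by transcript length, so levels can be set against each other within a library. Relative to Snap25, Insm1 was 3.60 times as high in replicate 1 of TRAMP PEITC at 24 weeks and 0.0130 times in the 16-week wild type library. For Chga the ratios to Snap25 were 4.14 and 0.215, for Chgb 0.958 and 0.105, and for Scg3 1.02 and 0.237, in the same order. Syp kept nearer ratios, 1.07 and 0.717, and Eno2 ran the other way, 0.285 and 0.482.

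Other neuroendocrine genes were high in the same TRAMP PEITC library. Of 12 neuroendocrine transcription factors that reached 0.1 FPKM in some library, 8 were at least 2 times as high there as in any other (among them Mycn, Myt1, Nkx2-2, Pou3f2, Prox1, Sox11 and St18), where 2.09% of all genes reaching that level were. A gene could reach 0.1 FPKM through that library alone, so this count describes the library and is not a test. Mycn, a MYC-family factor known from neuroendocrine prostate cancer, was at 1.65 FPKM there and at most 0.133 FPKM elsewhere. Neurod1, another neuroendocrine factor, was listed at 0 in all 12 libraries. Ddc, the decarboxylase of amine synthesis, was at 12.1 FPKM there and 1.93 FPKM in the next library. Elavl4, a neuronal RNA-binding protein, was at 5.01 FPKM there against 0.296 FPKM in the next. Scg5, a chaperone of prohormone convertase, was at 2.95 FPKM there against 0.642 FPKM in the next, yet it was the only 1 of 11 detected genes for granule cargo and prohormone processing with its highest value in that library. Dll3, a Notch ligand of neuroendocrine tumors, was at 0.203 FPKM there and at most 0.0305 FPKM elsewhere.

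Markers of autonomic neurons separated the 2 libraries. Of 9 such markers detected, 6 (among them Dbh, Hand2, Phox2a, Prph and Th) were at least 2 times as high in the 16-week wild type library as in any other, where 2.11% of all genes reaching 0.1 FPKM were, and none was in replicate 1 of TRAMP PEITC at 24 weeks. Here too a marker could reach 0.1 FPKM through the wild type library alone, so the count is a description. Th, the rate-limiting enzyme of catecholamine synthesis, was at 0.0192 FPKM in the TRAMP PEITC library and 1.71 FPKM in the 16-week wild type library. The nerve peptide gene Npy was at 0.124 FPKM in the TRAMP PEITC library and 16.4 FPKM in the wild type library. Prph, the peripheral neuron filament, was high in both, at 3.80 FPKM in the TRAMP PEITC library and 8.45 FPKM in the wild type library, against at most 1.14 FPKM elsewhere. The 10 autonomic markers summed to 50.3 FPKM in the TRAMP PEITC library, 86.0 FPKM in the 16-week wild type library, 78.5 and 80.3 FPKM in the 24-week wild type libraries and 39.6 to 51.2 FPKM in the other 8 TRAMP libraries; most of each sum is Gata3 and Slc6a2, which were at 30.9 FPKM or more and 4.48 FPKM or more in every library. The 12 Schwann cell markers summed to 26.0 FPKM in the TRAMP PEITC library and 38.0 FPKM in the 16-week wild type library, against 22.8 to 29.2 FPKM in the other 10. The part of nerve or seminal vesicle tissue in the members' levels of the wild type library was not tested.

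**Figure D2:**
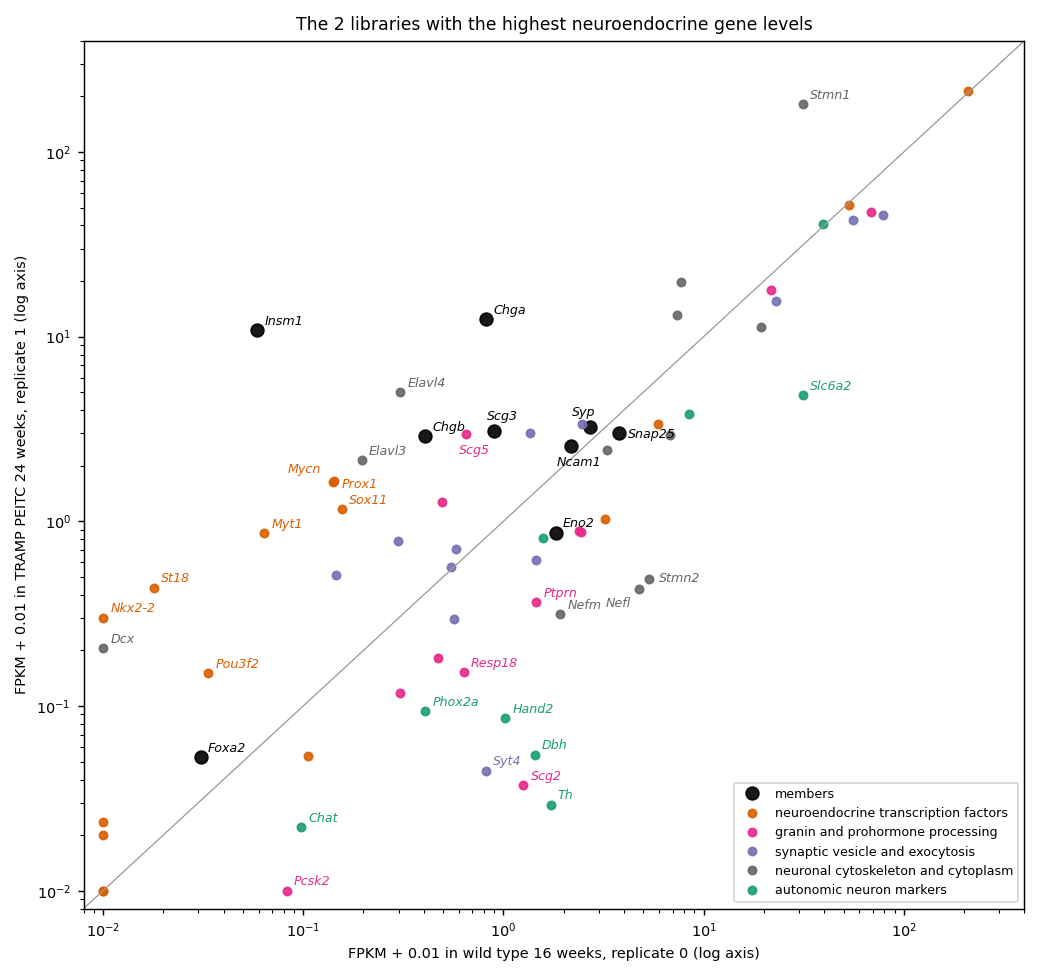
FPKM + 0.01 on log axes in replicate 1 of TRAMP PEITC at 24 weeks (vertical) and in the 16-week wild type library (horizontal); points are single genes, colored by list, and the line marks equal levels. Insm1, Chga, Mycn and Elavl4 lie far above the line, autonomic neuron markers such as Th and Dbh lie below it, and Syp, Snap25 and Ncam1 lie near it.

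The study asks whether PEITC in the diet alters the TRAMP prostate. At 24 weeks, the 5 members that passed a mean of 0.5 FPKM over the 12 libraries (Insm1, Chga, Syp, Snap25 and Ncam1) had higher means on PEITC. For Insm1, Chga, Syp and Snap25 the mean joined 1 library near or below control with 1 far above it. For Ncam1 both PEITC libraries (0.920 and 2.55 FPKM) were above both control libraries (0.255 and 0.675 FPKM). The share of all genes separated in this way is not given here, so this is not read as a trait of Ncam1. Insm1, Chga and Snap25 would not have passed without replicate 1 of TRAMP PEITC at 24 weeks; Foxa2, Chgb, Scg3 and Eno2 did not pass and were not tested. Tests used limma on log2(FPKM + 1), on which scale fold changes of low genes are understated. Insm1 averaged 5.41 ± 7.65 FPKM on PEITC and 0.0267 ± 0.00849 FPKM on control diet (SD, n = 2 each), with a log2 fold change of 1.74 ± 0.90 (SE; limma, Benjamini-Hochberg adjusted p = 0.578). Chga averaged 6.29 ± 8.70 FPKM on PEITC and 0.137 ± 0.00509 FPKM on control diet (SD, n = 2 each), and its log2 fold change was 1.79 ± 0.91 (SE; limma adjusted p = 0.574). With limma, 0 of 5 members were called (adjusted p under 0.05), as were 0% of all 13375 genes. At an unadjusted threshold of 0.05 the count was 1 member, Ncam1, among 1267 genes; its log2 fold change was 0.85 ± 0.32 (SE; limma adjusted p = 0.511).

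Leaving out either PEITC library changed these values. Without replicate 1, the log2 fold changes were -0.038 for Insm1, 0.006 for Chga, -0.035 for Syp, -0.12 for Snap25 and 0.41 for Ncam1, and none was called. Without replicate 0, the log2 fold changes were 3.53 for Insm1, 3.56 for Chga, 1.39 for Syp, 1.88 for Snap25 and 1.29 for Ncam1. In the 11 libraries other than replicate 1, Insm1 averaged 0.0377 FPKM, Chga 0.355 FPKM and Snap25 0.487 FPKM, all under the filter of 0.5 FPKM, so these 3 passed it only with replicate 1 and nothing is read from their calls in that fit. A single library, assumed to vary like the other groups, then stands for the PEITC diet, so the values describe that library and give no replicated effect of the diet.

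**Figure D3:**
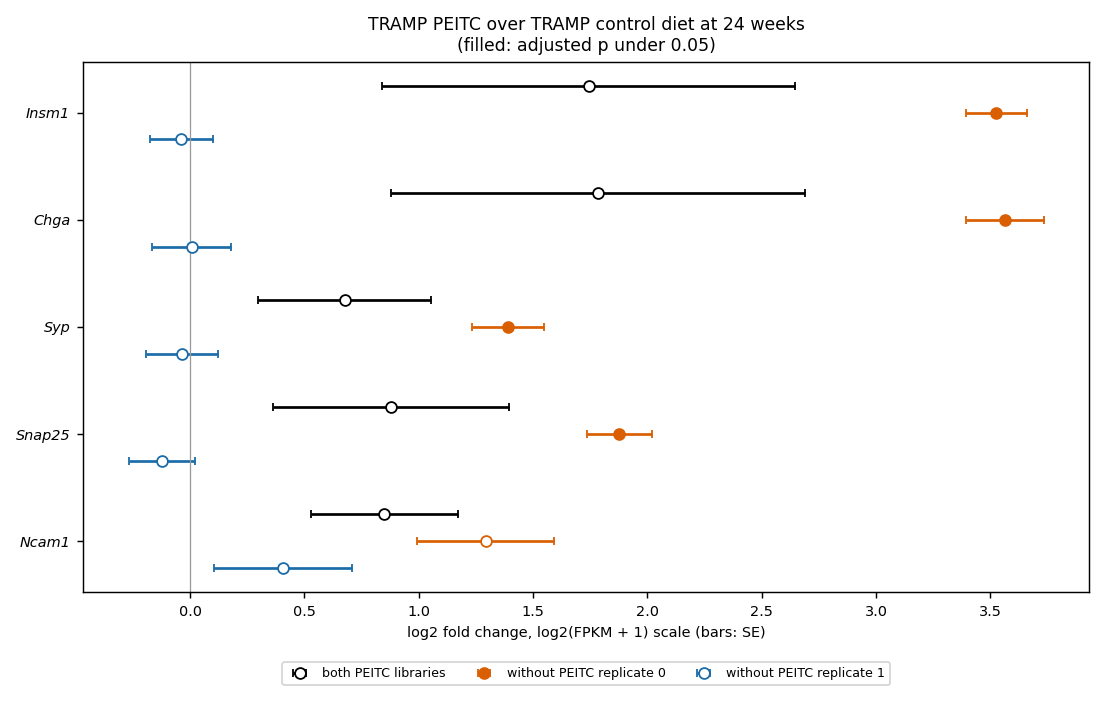
Log2 fold change on the log2(FPKM + 1) scale of TRAMP PEITC over TRAMP control diet at 24 weeks, with SE bars, for the 5 members tested: with both PEITC libraries, without replicate 0 and without replicate 1. Insm1 is at 1.74, 3.53 and -0.038 in that order; filled points (adjusted p under 0.05) are in the fit without replicate 0, where 1 library stands for PEITC, and nothing is read from them.

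At 16 weeks no library on either diet was high for these genes, and Insm1 was at most 0.0621 FPKM. Chga was at 0.298 ± 0.0366 FPKM on PEITC and 0.175 ± 0.120 FPKM on control diet (SD, n = 2 each). The groups did not overlap, but the share of all genes without overlap is not given here, so nothing is read from this. The log2 fold change of Chga was 0.15 ± 0.91 (SE, limma adjusted p = 0.974). None of the 5 members was called, against 0.00748% of all genes, and none had an unadjusted p under 0.05. With both ages averaged, limma called 0 of 5 members, none passed unadjusted either, and 0% of all genes were called. Ncam1 was nearest, with a log2 fold change of 0.52 ± 0.23 (SE; limma adjusted p = 0.735). The difference of the PEITC effect between the ages was called for none of the members and for 0.00748% of all genes, with 1.75 ± 1.28 for Insm1 (SE; limma adjusted p = 0.589).

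TRAMP prostate on control diet was next set against wild type. No member was called higher in TRAMP. Insm1 was at 0.0207 to 0.0463 FPKM in the 4 TRAMP control libraries and 0.0304 to 0.0746 FPKM in the 3 wild type libraries. At 24 weeks, Chga averaged 0.137 ± 0.00509 FPKM in TRAMP and 0.796 ± 0.229 FPKM in wild type (SD, n = 2 each), and Snap25 0.0917 ± 0.0879 FPKM in TRAMP and 0.417 ± 0.0486 FPKM in wild type (SD, n = 2 each). The groups did not overlap for Chga, Syp, Snap25 and Ncam1. The share of all genes without overlap is not given here, so this is not read as a trait of the members. With all 12 libraries in the fit, 0 of 5 members were called, against 45.0% of all genes, and none had an unadjusted p under 0.05. The shared spread of that fit includes replicate 1 of TRAMP PEITC at 24 weeks, a library in neither group. Without it, 2 of 5 were called lower, against 19.8% of all genes: Chga, with a log2 fold change of -0.65 ± 0.14 (SE; limma adjusted p = 0.0102, against 0.585 with 12 libraries), and Snap25, with -0.38 ± 0.12 (SE; limma adjusted p = 0.0404, against 0.580). Ncam1, at 0.465 ± 0.297 FPKM in TRAMP and 1.35 ± 0.0145 FPKM in wild type (SD, n = 2 each), had a log2 fold change of -0.70 ± 0.25 in that fit (SE; limma adjusted p = 0.0588). That fit was added after the values were seen. Chga and Snap25 passed the filter only with replicate 1 of TRAMP PEITC at 24 weeks. Nothing is read from their calls in that fit.

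At 16 weeks the comparison rests on the 1 wild type library with seminal vesicle RNA, and the spread within other groups stands in for its own. Snap25 was lower in TRAMP, at 0.0151 ± 0.0214 FPKM (SD, n = 2), against 3.76 FPKM in wild type (n = 1), a log2 fold change of -2.23 ± 0.63 (SE; limma adjusted p = 0.0291). Syp was also lower in TRAMP, at 0.379 ± 0.157 FPKM (SD, n = 2), against 2.70 FPKM in wild type (n = 1), a log2 fold change of -1.43 ± 0.46 (SE; limma adjusted p = 0.0468). These 2 of 5 members compare with 15.4% of all genes called lower and 33.6% called either way. Without the 16-week wild type library the mean of Snap25 was 0.418 FPKM, under the filter, so it passed only with a library in which it is high, and nothing is read from its call. Eno2, which did not pass the filter, had a log2 fold change of -1.24 ± 0.22 with no filter (SE). Its highest value, 1.81 FPKM, was in that single wild type library, so nothing is read from this change. Eno2 was at 0.193 and 0.188 FPKM in TRAMP control at 16 weeks and at 0.328 and 0.161 FPKM in wild type at 24 weeks. With the 24-week wild type libraries as control, no member was called with 12 libraries in the fit, against 42.1% of all genes; Snap25 was then at -0.48 ± 0.52 (SE; limma adjusted p = 0.486). Without replicate 1 of TRAMP PEITC at 24 weeks as well, 2 of 5 were called lower, against 18.5% of all genes: Chga, -0.61 ± 0.14 (SE; limma adjusted p = 0.0138), and Snap25, -0.48 ± 0.12 (SE; limma adjusted p = 0.0180). Without that replicate Chga and Snap25 averaged 0.355 and 0.487 FPKM, under the filter. Nothing is read from these 2 calls.

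Averaged over both ages, Snap25 was lower in TRAMP by a log2 fold change of -1.30 ± 0.41 (SE; limma adjusted p = 0.0280), the only 1 of 5 members called, against 25.9% of all genes called lower and 52.7% called either way. The wild type mean includes the 16-week library, without which Snap25 averaged 0.418 FPKM, under the filter. Nothing is read from this call either. Without replicate 1 of TRAMP PEITC at 24 weeks in the fit, the values were -0.64 ± 0.11 for Chga, -1.30 ± 0.09 for Snap25, -0.76 ± 0.10 for Syp and -0.63 ± 0.19 for Ncam1 (SE). Chga and Snap25 passed the filter only with that replicate, so nothing is read from their calls without it. Syp and Snap25 were at 2.70 and 3.76 FPKM in the single 16-week wild type library. With the 24-week wild type libraries alone as control and the same replicate left out, no member other than Chga and Snap25 was called.

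**Figure D4:**
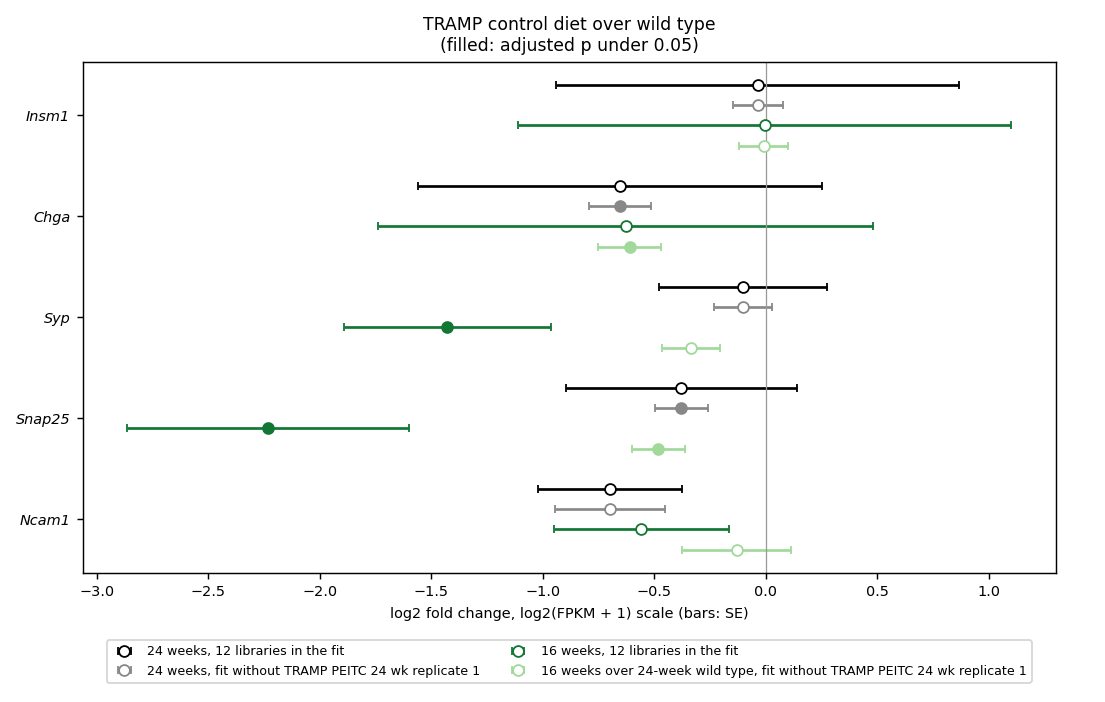
Log2 fold change on the log2(FPKM + 1) scale of TRAMP control diet over wild type, with SE bars, for the 5 members tested in 4 fits. Chga lies between -0.65 and -0.61 in all 4 and is filled (adjusted p under 0.05) only in the fits without replicate 1 of TRAMP PEITC at 24 weeks; Snap25 at 16 weeks is -2.23 over the 16-week wild type library and -0.48 over the 24-week wild type libraries. Chga and Snap25 passed the filter only with that replicate, so nothing is read from their filled points.

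The difference of the TRAMP effect between the ages was called for 0 of 5 members by limma, against 0.366% of all genes, and no member passed unadjusted. For Snap25 the difference (24 minus 16 weeks) was 1.85 ± 0.82 (SE; limma adjusted p = 0.324), and Snap25 was the 1 member called when the fit left out replicate 1 of TRAMP PEITC at 24 weeks (SE 0.19; limma adjusted p = 0.0109), against 0.449% of all genes called higher. Snap25 passed the filter only with that replicate, so nothing is read from this call. Between the ages, 24 against 16 weeks, no member was called on control diet (0.00748% of all genes) or on PEITC diet (0% of all genes), and none had an unadjusted p under 0.05. In the single tumor, Chga was at 0.143 FPKM in the tumor and 0.137 ± 0.00509 FPKM in TRAMP prostate (SD, n = 2), and Insm1 at 0.0296 FPKM in the tumor and 0.0267 ± 0.00849 FPKM in TRAMP prostate (SD, n = 2). Other members were higher in the tumor by value, among them Snap25 (0.420 FPKM in the tumor and 0.0917 ± 0.0879 FPKM in TRAMP prostate), Eno2 (0.640 FPKM and 0.323 ± 0.0770 FPKM) and Ncam1 (0.793 FPKM and 0.465 ± 0.297 FPKM, in that order; SD, n = 2). None of the 5 members tested was called for the tumor against TRAMP prostate (11.8% of all genes) or against wild type (52.2%), and none had an unadjusted p under 0.05. Without replicate 1 of TRAMP PEITC at 24 weeks in the fit, the log2 fold change of Chga in the tumor over wild type was -0.65 ± 0.17 (SE). Chga passed the filter only with that replicate, so nothing is read from its call in that fit. The tumor has no replicate of its own and is assumed to vary like the other groups.

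Further genes of the same cell programs, listed with earlier results known, were also tested in TRAMP against wild type at 24 weeks, a comparison that does not use the 16-week wild type library and in which 23.0% of all genes were called higher and 22.0% lower. The list counts below, over few tested genes, are read beside those shares. Of 13 synaptic vesicle genes, 7 were tested and 5 fell, none rose, with a median log2 fold change of -0.51 against -0.000742 for all genes. The fallen genes include Vamp2, a vesicle SNARE, by -0.59 ± 0.06 (SE; limma adjusted p = 0.000174). Of 12 genes for granule cargo and prohormone processing, 4 were tested and 2 fell: Ptprn2, a granule membrane protein, by -1.28 ± 0.18 (SE; limma adjusted p = 0.00103), and Pam, the peptide amidating enzyme, by -1.05 ± 0.12 (SE; limma adjusted p = 0.000400). Of 17 neuroendocrine transcription factors, 4 were tested and 2 fell, Isl1, a LIM homeodomain factor, by -0.75 ± 0.14, and Sox2, a stem cell factor, by -0.71 ± 0.17 (SE; limma adjusted p 0.00346 and 0.0111). Mycn was not tested, being under the filter. Of 10 autonomic neuron markers, 3 were tested, too few to set against the 22.0% of all genes, and 1 fell: Slc6a2, the noradrenaline transporter, by -2.39 ± 0.17 (SE; limma adjusted p = 3.66e-05). These counts were unchanged without replicate 1 of TRAMP PEITC at 24 weeks for the vesicle, granule and transcription factor lists, and rose to 2 for the autonomic list, with Prph. The cytoskeleton count described next became 4 higher and 1 lower.

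Of 12 genes for the neuronal cytoskeleton, 8 were tested at 24 weeks in TRAMP against wild type; 3 rose and 1 fell, against 45.0% of all genes called either way. Stmn1, a tubulin-destabilizing protein also high in dividing cells, was at 119 and 128 FPKM in TRAMP control and 11.7 and 9.78 FPKM in wild type at 24 weeks, a log2 fold change of 3.42 ± 0.15 (SE; limma adjusted p = 4.95e-06). All 8 proliferation genes tested rose in the same comparison, among them Mki67 by 2.78 ± 0.18 (SE; limma adjusted p = 2.74e-05). Nefl, the light neurofilament, fell by 1.82 on the log2 scale. Of 8 genes of the Notch pathway, 5 were tested: Notch1 rose by 0.99, while Dll1, Hes1 and Jag1 fell (limma adjusted p 0.00246 to 0.00958); Hes1 encodes a repressor that acts downstream of Notch. Of 7 genes for repression of neuronal genes and neural splicing, 5 were tested and 1 rose (Hdac2). The fit without replicate 1 of TRAMP PEITC at 24 weeks also called Rcor2 higher, at 0.42 ± 0.10 (SE). Rest itself, at 4.58 to 6.95 FPKM in all libraries, was called in none of the 12 comparisons.

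The genes most like each tested member were taken by Pearson's r of log2(FPKM + 1) over the 12 libraries, as a description. Insm1 was most like Sox1, Asb4 and Crmp1 (r = 0.999, 0.999 and 0.985), and without replicate 1 of TRAMP PEITC at 24 weeks these became -0.21, -0.09 and -0.01. Sox1, a neural SOX factor, was at 6.48 FPKM in that library and at most 0.0569 FPKM in any other. Chga was most like Peg10, Dpysl5 and Pdxp (r = 0.990, 0.978 and 0.973), and kept 0.92, 0.79 and 0.86 without that library. Syp and Snap25 were both most like Stmn3, a stathmin of neurons (r = 0.972 and 0.982), and each was at 0.961 with the other. Ncam1 was most like Spire1, Peli2 and Dner (r = 0.881, 0.854 and 0.842).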

How the data were processed

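RNA was sequenced from 12 mouse prostate libraries. The authors' deposited values are FPKM for each of 24421 genes, aligned to mm10; per the submitters' processing notes, featureCounts, HISAT2, DESeq2 and Picard were used, with no version or role stated. Sequencing depth is unknown in reads; relative depth (0.635 to 1) and approximate fragments came from the steps between low FPKM values, whole within 0.15 of a fragment, and are quoted only for genes where all low values were whole. FPKM are not counts, so no count test was run.

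Values were tested as log2(FPKM + 1) with limma 3.58.1 in R 4.3.3, for the 13375 genes averaging 0.5 FPKM or more, with a mean per group over 12 libraries, 5 residual degrees of freedom and an intensity trend. P-values are two-sided and Benjamini-Hochberg adjusted over all genes tested; an adjusted p under 0.05 was called. P-values measure only the spread between these samples, which may be technical. On simulated data the test recovered most of the planted changes. The size and spread of those changes are not given here, so this does not measure power in these groups. The members, comparisons and gene lists were chosen with earlier results of these data known. All 9 members and Rest are named; list genes were named by size of a called change or by a value over 3 FPKM and 3 times the next library, like genes by correlation. Mycn, Myt1, Nkx2-2, Pou3f2, Prox1, Sox11, St18, Neurod1, Scg5, Dll3 and the autonomic markers of the 16-week wild type library were named after their values were seen. Some results are not reported here. Gene positions are from GENCODE M21 and promoters from RefSeq (GRCm38.p6). Figures used Python 3.11.15 and matplotlib 3.10.9. Alternatives were other pseudocounts, filters, scalings and fits, a replicate block and leaving out replicates.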

Additional observations from a re-analysis of the deposited data

How the results depend on the processing

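Counts are of the 5 tested members called. Insm1, Chga and Snap25 passed the filter only with TRAMP PEITC 24-week replicate 1, so nothing is read from their part in these counts. For TRAMP against wild type at 24 weeks (0 called) quantile normalization gave 1, fitting only the groups compared 2, and leaving out TRAMP PEITC 24-week replicate 1 gave 2. At 16 weeks (2 called) pseudocount 5, no filter, scaling without the 50 top genes, no intensity trend and the replicate block gave 1 each, a filter of mean 1 FPKM gave 0, the 24-week wild type as control 0, and leave-one-out 0 to 3. For the mean of ages (1 called) pseudocount 0.1 gave 2, a filter of mean 1 FPKM 0, quantile normalization 3, fitting only the groups compared 3, 24-week wild type alone as control 0 (2 without TRAMP PEITC 24-week replicate 1), and leave-one-out 0 to 4. Leave-one-out gave 0 to 4 for PEITC at 24 weeks, 0 to 3 for PEITC over both ages, 0 to 4 for 24 against 16 weeks on PEITC, and 0 to 3 for the difference of the PEITC effect between ages; each upper value came without TRAMP PEITC 24-week replicate 0. Tumor against wild type gave 1 and the difference of the TRAMP effect between ages 1, both when only the groups compared were fitted and without TRAMP PEITC 24-week replicate 1. Of all other alternatives, 142 counts stayed within 1.5 times. The replicate block changed no other count, though for the mean of ages it called Ncam1 in place of Snap25. Same-number deviations correlated over 0.1 in 2 of 6 pairs of groups (-0.31 to 0.28). With a single difference per group, this cannot decide whether replicate numbers pair the libraries.

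Some fold changes (log2) changed sign, and those of the replicate block reached 0.96. The replicate block gave 0.40 for Insm1 and 0.078 for Syp (TRAMP against wild type, 24 weeks), 0.41 for Insm1 and 0.45 for Chga (24 against 16 weeks, control diet), 0.42 for Insm1 (tumor against wild type), and 0.85 for Insm1, 0.96 for Chga and 0.073 for Ncam1 (difference of the TRAMP effect). Quantile normalization gave 0.032 for Insm1 (TRAMP against wild type, 16 weeks), -0.012 for Chga (tumor against TRAMP) and -0.14 for Snap25 (tumor against wild type), and the scaling without top genes 0.000733 for Insm1 at 16 weeks. The cause was not tested.

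With replicates left out in turn, PEITC at 24 weeks ranged over -0.038 to 3.53 for Insm1, -0.035 to 1.39 for Syp and -0.12 to 1.88 for Snap25. PEITC at 16 weeks ranged over -0.030 to 0.023 for Insm1 and -0.16 to 0.56 for Ncam1, and PEITC over both ages over -0.021 to 1.76 for Insm1 and -0.030 to 0.97 for Snap25. The 24 against 16 weeks values were -0.15 to 0.061 for Chga on control diet, and on PEITC -0.061 to 3.50 for Insm1, -0.19 to 3.37 for Chga, -0.086 to 1.92 for Snap25 and -0.36 to 0.53 for Ncam1. The tumor gave -0.00434 to 0.013 for Insm1 over TRAMP and -0.031 to 0.039 for Snap25 over wild type. The difference of the TRAMP effect ranged over -0.16 to 0.10 for Chga and -0.50 to 0.22 for Ncam1, and that of the PEITC effect over -0.035 to 3.53 for Insm1, -0.14 to 3.42 for Chga and -0.23 to 1.20 for Syp and -0.19 to 1.81 for Snap25.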

Other observations

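By a rule set after the values were seen (over 3 FPKM and over 5 times the next library), 15 genes stood out in TRAMP PEITC 24-week replicate 1, 19 in the tumor, 39 in the 16-week wild type library, 1 in replicate 0 of the 24-week wild type and 0 in the other 8 libraries. Besides Insm1, Chga, Ddc, Elavl4, Sox1, Asb4, Crmp1 and Peg10, the 15 were Nnat, Nov, Tagln3, Sncb, Thbs4, Ly6h and Pcdh8. Nnat, the imprinted neuronatin gene, was at 39.2 FPKM there and 7.43 FPKM in the next library. Nov, a secreted matricellular protein, was 8.32 times as high there as in the next library, and Sncb, the neuronal beta-synuclein, was at 5.14 FPKM there against 0.288 FPKM in the next. Ly6h and Pcdh8, a brain-expressed surface protein and a protocadherin, were 49.9 and 69.1 times as high there as in the next library. Peg10 and Asb4 are neighbors in an imprinted cluster, and their levels there were 5.26 and 6.26 FPKM. In the tumor the genes past the same rule include Timp1, a protease inhibitor, at 165 FPKM against 31.1 FPKM in the next library, and Krt17, a stress keratin, at 52.8 FPKM against 6.48 FPKM. These are single libraries with no replicate of the pattern.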
